A study of Mus musculus with 8 samples.

Results

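The carnitine shuttle and the genes of mitochondrial long-chain fatty acid oxidation were followed in mouse liver through 10 genes, 4 of the shuttle (Cpt1a, Cpt1b, Cpt2 and Slc25a20) and 6 of the oxidation that follows it (Acadl, Acadm, Acadvl, Hadha, Hadhb and Etfdh). They were chosen by symbol, and all 10 were found among the 38283 genes of the table and had an FPKM above 1 in at least 1 library, as did 11634 genes in all. The study asked what the loss of the nuclear receptor RORα in hepatocytes does to the liver on a control diet (CD) and on a high-fat diet (HFD). All mice were male and carried floxed Rora alleles (RORα f/f), with loxP sites around exons 4 and 5. The RORα LKO mice carried in addition a Cre recombinase driven by the albumin promoter, which acts in hepatocytes. Whether Rora was intact in other liver cells was not examined here. Both genotypes were on a C57BL/6 background. Feeding on either diet began at 8 weeks of age and lasted 10 weeks. Each of the 4 groups (RORα f/f on CD, RORα LKO on CD, RORα f/f on HFD, RORα LKO on HFD) had 2 libraries, and each library pooled RNA of 2 livers. The spread between the 2 libraries of a group is thus a spread between pools of mice.

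Long-chain fatty acids enter the mitochondrial matrix as acylcarnitines. CPT1 at the outer membrane makes the acylcarnitine, the carrier encoded by Slc25a20 moves it across the inner membrane in exchange for carnitine, and CPT2 on the matrix side returns it to acyl-CoA. Cpt1a encodes the CPT1 isoform of liver and Cpt1b that of muscle and brown fat, and both isoforms are inhibited by malonyl-CoA, the product of acetyl-CoA carboxylase. Acyl-CoA dehydrogenases for very long, long and medium chains (Acadvl, Acadl and Acadm) then start each round of beta-oxidation, the trifunctional protein made of the Hadha and Hadhb subunits carries out the later steps for long chains, and the flavoprotein dehydrogenase encoded by Etfdh passes the electrons to ubiquinone. Many of these genes are known targets of PPARα.

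The values of the series allowed the labels to be checked only in part. Rora was 8.72 ± 0.184 FPKM (SD, n = 2) in RORα f/f and 8.07 ± 0.151 in RORα LKO libraries on CD, and 7.71 ± 0.216 and 7.66 ± 0.506 on HFD, where the libraries overlapped. An FPKM over the whole gene does not isolate the floxed exons, so libraries are named below by their label. The study itself reported depleted Rora mRNA and RORα protein in liver and primary hepatocytes of RORα LKO mice. The labels read WT and KO, taken here as the RORα f/f and RORα LKO of the study's methods. Between 10587 and 10706 genes had an FPKM above 1 in a library. Hepatocyte markers were abundant (Cyp2e1, a cytochrome P450 of hepatocytes, was at 3875 to 6770 FPKM), but Alb was listed at 0 in 4 of the 8 libraries and at 29902 to 30888 FPKM in the others, so that a 0 in this table can be a failed estimate. No member was listed at 0 in any library. Over both labels, 3 of 8 hepatocyte markers rose on HFD and 1 fell at an adjusted p under 0.05. The shares over all genes were 5.04% and 4.86%. Cyp2e1 rose (limma log2 difference 0.92, adjusted p = 0.00313) and Tat fell (-1.14, adjusted p = 0.00606). For the genotype label on HFD, Cyp2e1 was higher (0.33, unadjusted p = 0.0135) and Cps1 lower (-0.46, unadjusted p = 0.00578). After adjustment 0 of the 8 passed there. Of 13 markers of skeletal and heart muscle, 5 were at 0 in every library and only Des passed an FPKM of 1. Of 9 adipocyte markers, the summed level was 11.6 to 12.1 FPKM in f/f-labelled and 16.1 to 16.8 in LKO-labelled libraries on CD, and 14.0 to 15.7 and 20.3 to 20.8 on HFD. Most of the genotype difference on HFD came from Cfd, at 0.488 and 1.87 against 5.45 and 5.29 FPKM. Cidea was at 0 and 0.0851 against 0.377 and 0.393 FPKM, Adipoq at 0.377 and 0.212 FPKM against 0 in both, Lep at 0.0227 FPKM in 1 f/f-labelled HFD library and 0 in the other 3, and Ucp1 at 0 in all 8 libraries. Fabp4 ran from 6.45 to 10.4 FPKM. Of the 3 adipocyte markers tested, it alone passed for diet over both labels (limma log2 difference 0.37, adjusted p = 0.0332). Adrb3 ran from 3.82 to 8.19 FPKM. It was higher under the LKO label on CD (0.66, unadjusted p = 0.00356, adjusted p = 0.212). Under the LKO label, Adrb3 was lower on HFD than on CD (-0.43, unadjusted p = 0.026, adjusted p = 0.171). The summed macrophage and leukocyte markers were 52.0 to 61.8 FPKM in f/f-labelled and 61.7 to 90.7 in LKO-labelled HFD libraries. On CD they were 73.5 to 86.1 and 68.8 to 74.2 FPKM. On HFD, 2 of the 6 tested were higher under the LKO label at an unadjusted p under 0.05 (5.46% of all genes). These were Cd68 (0.54, unadjusted p = 0.0182, adjusted p = 0.382) and Clec4f (0.39, unadjusted p = 0.0169, adjusted p = 0.381). The summed markers of stellate cells and endothelium were 94.2 to 116 FPKM in f/f-labelled and 91.2 to 118 in LKO-labelled HFD libraries. On CD the latter markers were 82.8 to 83.7 FPKM in f/f-labelled and 66.8 to 66.9 in LKO-labelled libraries, below every HFD library. Dcn, a proteoglycan gene of stellate cells and fibroblasts, rose on HFD over both labels (log2 difference 0.78, adjusted p = 0.0283). The other 6 of these 7 markers did not pass the adjusted test for diet. Cholangiocyte markers summed to between 2.05 and 2.43 FPKM in all 4 HFD libraries. The part of other cell types in the differences below was not tested. In whole liver, fewer cells of a type and less RNA per cell cannot be told apart.

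The members lie on 8 chromosomes of GRCm38 (GENCODE M21), and Hadha and Hadhb are neighbours. Hadha (chr5:30118304-30155162, minus strand, 20 exons) and Hadhb (chr5:30155248-30184593, plus strand, 16 exons) are transcribed away from each other from starts only 85 bases apart. Acadm (chr3:153922357-153944632, 12 exons), Acadl (chr1:66830839-66863277, 11 exons), Acadvl (chr11:70010183-70015411, 20 exons), Etfdh (chr3:79603788-79629500, 13 exons) and Cpt2 (chr4:107903981-107923610, 5 exons) lie on the minus strand. Cpt1a (chr19:3322334-3385733, 19 exons) and Slc25a20 (chr9:108662088-108684641, 9 exons) lie on the plus strand. Cpt1b (chr15:89416405-89425863, minus strand, 19 exons) starts 496 bases beyond the end of its upstream neighbour Chkb. The libraries did not keep strand, so reads from overlapping genes on the other strand could be counted with a member. The most abundant such neighbour, Dvl2, which overlaps the end of Acadvl, was at 1.18 to 3.71 FPKM. RefSeq promoter windows (250 bases before to 50 after the start, GRCm38.p6) were found for 9 members and not for Cpt1b. Sequence outside annotated exons is shown for the 3 acyl-CoA dehydrogenase genes, whose diet differences (given below) were unequal, and for the shared Hadha and Hadhb start. It is written 5′ to 3′ on the gene's strand, with AGGTCA, the half-site that RORα, PPARs and other nuclear receptors recognize, or its reverse complement TGACCT in capitals.
Acadm, chr3:153944644-153944893, minus strand: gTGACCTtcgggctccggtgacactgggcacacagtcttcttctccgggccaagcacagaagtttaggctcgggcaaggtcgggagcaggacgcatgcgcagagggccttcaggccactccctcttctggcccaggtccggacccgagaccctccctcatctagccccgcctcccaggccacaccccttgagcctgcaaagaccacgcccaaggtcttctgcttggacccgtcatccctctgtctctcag
Acadl, chr1:66863310-66863559, minus strand: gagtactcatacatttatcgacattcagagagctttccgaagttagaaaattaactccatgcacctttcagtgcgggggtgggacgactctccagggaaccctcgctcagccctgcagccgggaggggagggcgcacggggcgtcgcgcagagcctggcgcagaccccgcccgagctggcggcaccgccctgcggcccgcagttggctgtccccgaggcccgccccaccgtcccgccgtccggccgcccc
Acadvl, chr11:70015429-70015678, minus strand: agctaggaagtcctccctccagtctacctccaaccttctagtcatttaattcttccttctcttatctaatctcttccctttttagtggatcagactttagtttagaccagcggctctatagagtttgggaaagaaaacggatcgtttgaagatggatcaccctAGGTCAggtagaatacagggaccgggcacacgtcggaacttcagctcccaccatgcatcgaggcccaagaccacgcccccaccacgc
Hadha to Hadhb, chr5:30155163-30155247, plus strand: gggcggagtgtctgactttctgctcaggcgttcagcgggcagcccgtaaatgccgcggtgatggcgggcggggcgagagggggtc

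AGGTCA on either strand was in 3 of the 9 member windows (Acadm, Acadvl and Cpt1a, 244, 82 and 89 bases before the RefSeq start) and in 16.3% of 32851 promoter windows of this length. The longer TAGGTCA, which contains the same half-site, was in the Acadvl window alone and in 2.61% of all windows. Neither TCAAGGTCA (0.423% of all windows) nor the DR1 element, a direct repeat of the half-site with 1 base between (0.0396%), both of which also contain the half-site, was in a member window. These matches describe the letters of a short window. They say nothing of whether a receptor binds there or elsewhere in the gene.

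FPKM is scaled by transcript length, so levels can be set side by side between genes. Acadm had the highest mean over the 8 libraries (206 FPKM, range 153 to 295), followed by Cpt1a (154, 140 to 190), Acadvl (148, 139 to 161), Etfdh (144, 117 to 183), Hadha (137, 121 to 159), Acadl (133, 109 to 164), Hadhb (104, 88.7 to 125), Cpt2 (99.1, 85.5 to 113) and Slc25a20 (76.9, 66.9 to 89.8). Neighbours in this order overlapped in range. Cpt1b stood apart at 2.44 FPKM (0.637 to 6.52), below every other member in every library. Acadvl varied least, by 1.16-fold from its lowest to its highest library, and Cpt1b most, by 10.2-fold. Among the other members this span was widest in Acadm, at 1.92-fold.

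**Figure D1:**
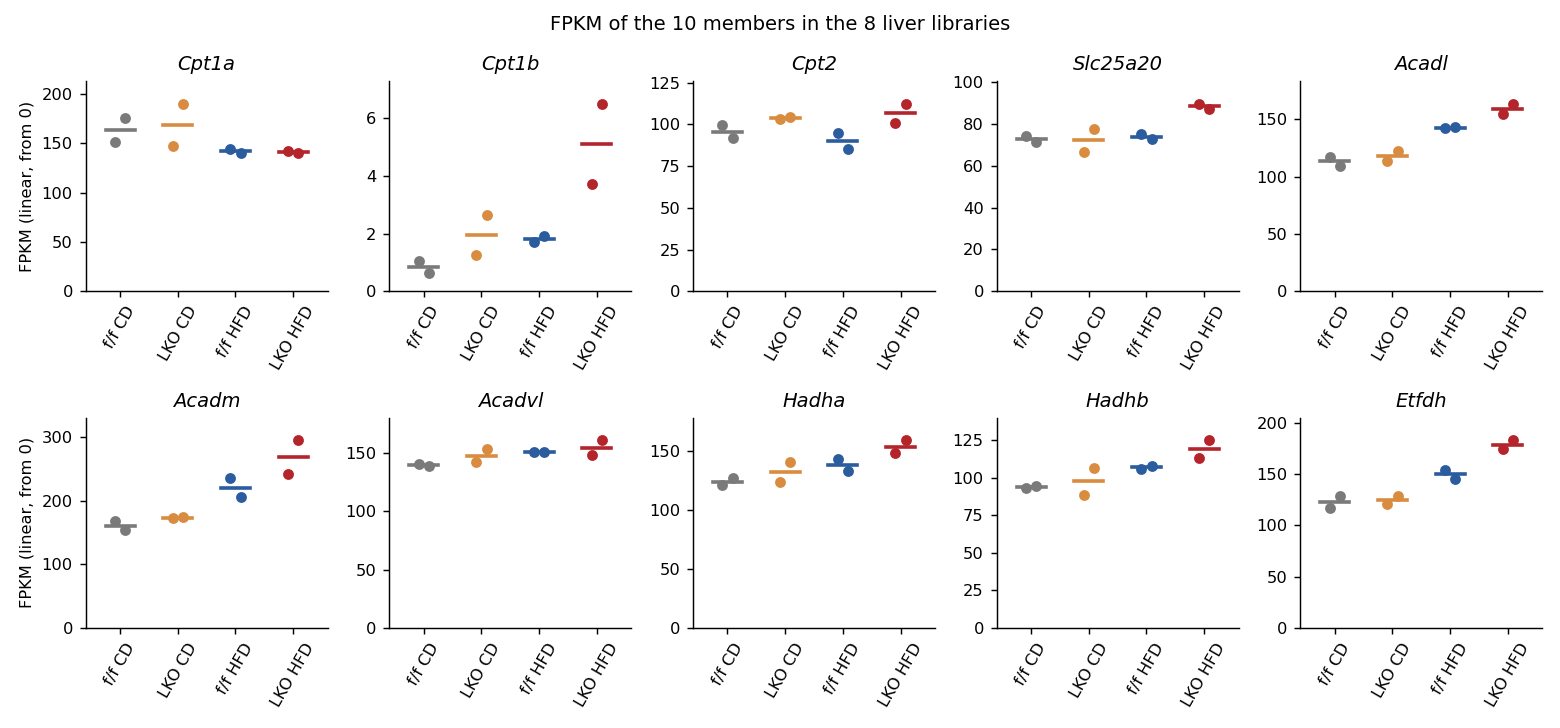
FPKM (linear axis from 0) of each member in the 8 libraries, with points for libraries and a line for the mean of each group of 2. Acadl, Acadm and Etfdh sit higher on HFD than on CD under both genotype labels, Cpt1a does not, and Cpt1b is highest in the LKO-labelled HFD libraries at 3.72 and 6.52 FPKM.

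On HFD, 9 of the 10 members were higher after normalization in both LKO-labelled libraries than in both f/f-labelled libraries, the exception being Cpt1a. No member passed an adjusted p of 0.05 in this comparison, where 5 of the 11634 genes did (0.043%). At an unadjusted p under 0.05, 6 members were higher and 0 lower, against 5.46% and 4.12% of all genes, and libraries were separated upward in 21.4% of all genes. The median log2 difference was 0.23 over the members and -7e-04 over all genes.

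In the shuttle, Cpt1b was at 1.72 and 1.92 FPKM in the f/f-labelled and at 3.72 and 6.52 FPKM in the LKO-labelled HFD libraries. The LKO mean was 2.82 times the f/f mean in FPKM, and the difference was 1.09 ± 0.289 (log2, SE; unadjusted p = 0.00722, adjusted p = 0.321). Slc25a20, the carrier, was at 75.3 and 72.6 in the f/f-labelled and 89.8 and 87.1 FPKM in the LKO-labelled libraries. The groups stood apart by more than their internal spread (1.20-fold in FPKM, log2 difference 0.29 ± 0.0833, unadjusted p = 0.0107, adjusted p = 0.342). Cpt2 was at 94.97 and 85.5 FPKM against 101 and 113 FPKM (log2 difference 0.26 ± 0.0766, unadjusted p = 0.0118, adjusted p = 0.345). Cpt1a, the liver isoform of the entry step, lay within 140 to 145 FPKM in all 4 HFD libraries. Its log2 difference was 0.02, with a 95% interval of -0.29 to 0.34.

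Among the dehydrogenases, Acadm was at 235 and 206 FPKM in the f/f-labelled and 242 and 295 FPKM in the LKO-labelled libraries, so that the lowest LKO value lay just above the highest f/f value. Its log2 difference was 0.32 ± 0.112 (unadjusted p = 0.0252, adjusted p = 0.432). Acadl was at 142 and 143 against 155 and 164 FPKM, with a log2 difference of 0.20 ± 0.0652 (unadjusted p = 0.0183, adjusted p = 0.382). The very-long-chain enzyme gene Acadvl was at 151 in both f/f-labelled libraries and at 148 and 161 FPKM in the LKO-labelled ones. These overlap in FPKM and were separated only after normalization, and the log2 difference was 0.07 with an interval of -0.08 to 0.22. Etfdh was at 154 and 145 FPKM against 174 and 183 FPKM (log2 difference 0.29 ± 0.0799, unadjusted p = 0.00875, adjusted p = 0.328). The subunit genes of the trifunctional protein were close to each other, with log2 differences of 0.19 for Hadha (143 and 134 against 148 and 159 FPKM) and 0.18 for Hadhb (106 and 108 against 113 and 125 FPKM), and neither reached an unadjusted p of 0.05. The count of 6 rests on single libraries: it was 1 without RORα f/f HFD replicate 2 and 2 without RORα LKO HFD replicate 2.

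On CD, no member had an unadjusted p under 0.05 (6.15% of all genes were higher at that level) or an adjusted p under 0.05 (0.0172% of all genes). Both LKO-labelled libraries lay above both f/f-labelled libraries for 4 members (Cpt1b, Cpt2, Acadm and Acadvl), against 21% of all genes. Cpt1b was at 1.06 and 0.637 FPKM in the f/f-labelled and 1.28 and 2.66 FPKM in the LKO-labelled CD libraries, with a log2 difference of 0.62 ± 0.289 (unadjusted p = 0.0715). For the other 9 members the log2 differences ran from -0.01 (Slc25a20) to 0.15 (Acadm), and all their 95% intervals included 0. In the RORα LKO group on CD, replicate 2 was above replicate 1 in FPKM for 10 of 10 members, by a median of 1.11-fold, while over all genes replicate 2 was above in 49.7%. The ratio was 2.08 for Cpt1b (1.28 and 2.66 FPKM) and 1.29 for Cpt1a (147 and 190 FPKM).

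Whether the genotype difference itself differed between the diets was tested by the interaction term. No member passed an adjusted p of 0.05 (0.0344% of all genes), and 1 had an unadjusted p under 0.05 with a positive difference (4.35% of all genes). That member was Slc25a20, whose interaction was 0.30 ± 0.118 (unadjusted p = 0.0396, adjusted p = 0.576). The unadjusted p was under 0.05 in 5 of 15 alternatives, and not without normalization, with median centring, without the trend, with the replicate block or when any 1 of 6 libraries was left out (all but replicate 2 of either RORα LKO group). Its FPKM was 66.9 to 77.6 in the 6 libraries other than the LKO-labelled HFD ones. The interaction was 0.26 for Etfdh (95% interval -0.004 to 0.53) and 0.48 for Cpt1b (-0.49 to 1.45), so that for Cpt1b neither a diet-independent nor a diet-dependent genotype difference could be told from these libraries.

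Averaged over the diets, 6 members were higher under the LKO label at an unadjusted p under 0.05 (7.18% of all genes) and 0 at an adjusted p under 0.05 (0.103% of all genes). These 6 members (Cpt1b, Cpt2, Slc25a20, Acadl, Acadm and Etfdh) had log2 differences from 0.13 for Acadl to 0.86 for Cpt1b. Cpt2 alone had all 4 LKO-labelled libraries (101 to 113 FPKM) above all 4 f/f-labelled libraries (85.5 to 99.5 FPKM), as did 2.48% of all genes. The averaged difference of Cpt2 was 0.18 ± 0.0542 (unadjusted p = 0.014, adjusted p = 0.232). The count of 6 fell to 2 without RORα LKO CD replicate 2, RORα f/f HFD replicate 2 or RORα LKO HFD replicate 2, and to 3 without RORα f/f CD replicate 2.

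**Figure D2:**
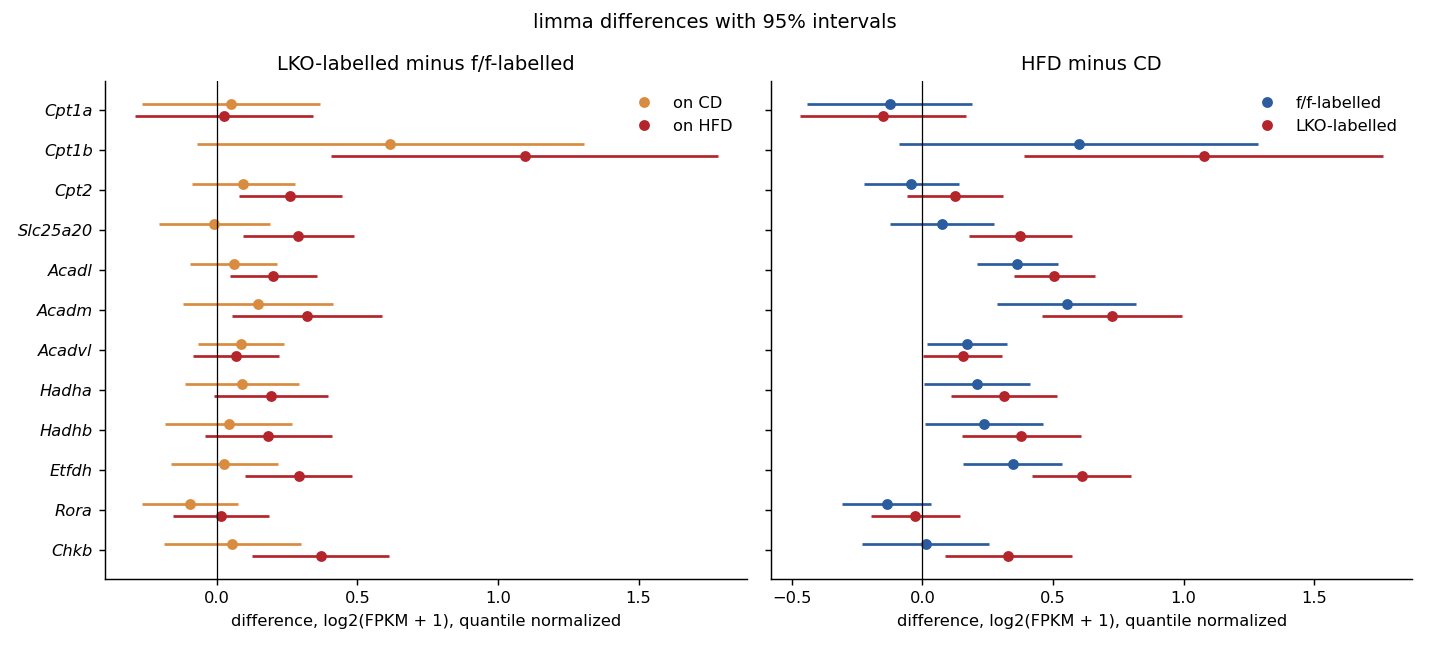
Log2 differences (points) with 95% intervals (lines) from limma, for the LKO label minus the f/f label on each diet (left) and HFD minus CD under each label (right). The intervals for Acadl, Acadm and Etfdh lie above 0 for the diet under both labels, and those for Cpt1a include 0 in all 4 comparisons.

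Diet was compared over the same libraries. Averaged over the labels, Acadl, Acadm, Hadha, Hadhb, Etfdh and Cpt1b rose on HFD at an adjusted p under 0.05, which is 6 of the 10 members against 5.04% of all genes. No member fell (4.86% of all genes fell). In 5 members (Acadl, Acadm, Acadvl, Hadhb and Etfdh) all 4 HFD libraries lay above all 4 CD libraries after normalization, against 8.61% of all genes. In FPKM, Acadvl and Hadhb overlapped between the diets. The median log2 difference was 0.28 over the members and 0.01 over all genes. Of the 1151 genes called over the whole table, 586 were higher and 565 lower, and without normalization the split was 397 higher and 703 lower.

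Acadm had 153 to 174 FPKM in the 4 CD libraries and 206 to 295 FPKM in the 4 HFD libraries. It rose by 0.64 ± 0.0794 on the log2 scale (adjusted p = 0.00809), which in FPKM was 1.37-fold under the f/f label and 1.55-fold under the LKO label. Etfdh ran from 117 to 129 FPKM on CD and from 145 to 183 FPKM on HFD, and rose by 0.48 ± 0.0565 (adjusted p = 0.00714). Acadl ran from 109 to 122 FPKM on CD and from 142 to 164 FPKM on HFD, and rose by 0.43 ± 0.0461 (adjusted p = 0.00586). For these 3 genes the groups did not overlap, and they kept an adjusted p under 0.05 in all 15 alternative analyses of the averaged diet difference. The other calls depended more on the choices. Hadhb (log2 difference 0.31, adjusted p = 0.0372), Hadha (0.26, adjusted p = 0.0427) and Cpt1b (0.84, adjusted p = 0.0497) lay close to the threshold. They passed it in 5 of 15, 2 of 15 and 2 of 14 alternatives, and the count of 6 was 4 without either RORα LKO CD library and 3 without any 1 of the other 6 libraries.

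The shuttle genes other than Cpt1b did not pass the test for diet. Cpt1a had 147 to 190 FPKM on CD and 140 to 145 FPKM on HFD, with a log2 difference of -0.14 and a 95% interval of -0.36 to 0.09. Cpt2 overlapped widely (91.8 to 104 FPKM on CD, 85.5 to 113 FPKM on HFD), with a difference of 0.04 and an interval of -0.09 to 0.17. Slc25a20 had a difference of 0.23 ± 0.0589 (adjusted p = 0.0605), and Acadvl of 0.16 ± 0.0453 (adjusted p = 0.0706).

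The diet differences within each genotype label share no libraries with each other, although all come from 1 fit. Under the f/f label, 6 members were higher on HFD at an unadjusted p under 0.05 (9.94% of all genes), 8 were separated upward (26.3%) and 0 passed an adjusted p of 0.05 (1.33% in either direction). The 6 were 3 without either RORα f/f CD library or without RORα f/f HFD replicate 1. The values nearest the adjusted threshold were those of Acadl (log2 difference 0.36, adjusted p = 0.0565), Acadm (0.55, adjusted p = 0.071) and Etfdh (0.35, adjusted p = 0.0917). Under the LKO label, 8 members were higher at an unadjusted p under 0.05 (11.7% of all genes), 9 were separated upward (28%), and 3 rose at an adjusted p under 0.05 (1.57%). These were Acadl (0.50, adjusted p = 0.0194), Acadm (0.73, adjusted p = 0.0301) and Etfdh (0.61, adjusted p = 0.0194). The count of 3 was 1 without either RORα f/f CD library and 0 without any 1 of the other 6 libraries. That members passed under the LKO label and not under the f/f label does not show a different response, since the interaction term, given above, passed an adjusted p of 0.05 for no member.

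Ratios between members within a library do not depend on how libraries are scaled to each other. All 45 pairs were compared by diet and by genotype label with a two-sided exact permutation test on the log2 FPKM ratio, 4 libraries against 4, and the 90 p-values were adjusted together. By diet, the ratio separated the HFD from the CD libraries in 23 of 45 pairs, against 17.3% of all pairs of genes with an FPKM above 1 in all 8 libraries. Each of the 23 had the smallest p this design allows (0.0286), which was 0.112 after adjustment. The pairs share genes and are not independent. By genotype label, 0 of 45 ratios were separated (5.18% of all gene pairs), and the smallest p was 0.0571.

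The separated ratios fell mostly between the shuttle and the oxidation genes. Of 18 ratios of Cpt1a, Cpt2 or Slc25a20 to an oxidation gene, 14 were separated, all lower on HFD. The ratio of Cpt1a to Acadm was 0.85 to 1.15 in the CD libraries and 0.477 to 0.680 in the HFD libraries. Cpt1a stood to Etfdh at 1.22 to 1.48 on CD and 0.769 to 0.962 on HFD, a shift from more to less Cpt1a than Etfdh mRNA per length. The ratio of Cpt2 to Acadm was narrow within each diet, at 0.591 to 0.600 on CD and 0.381 to 0.417 on HFD. Among the oxidation genes 8 of 15 ratios were separated, with Acadl and Acadm rising relative to Acadvl and Hadha. The ratio of Hadha to Hadhb stayed between 1.23 and 1.39 in all 8 libraries and was separated neither by diet nor by label. No ratio with Cpt1b was separated when the labels were pooled (0 of 9). Within each genotype label, 2 libraries against 2, the level of Cpt1b relative to each of the 9 other members was higher in both HFD libraries than in both CD libraries under both labels. Of all 45 ratios, 35 were separated the same way under both labels, against 25.5% of all gene pairs.

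**Figure D3:**
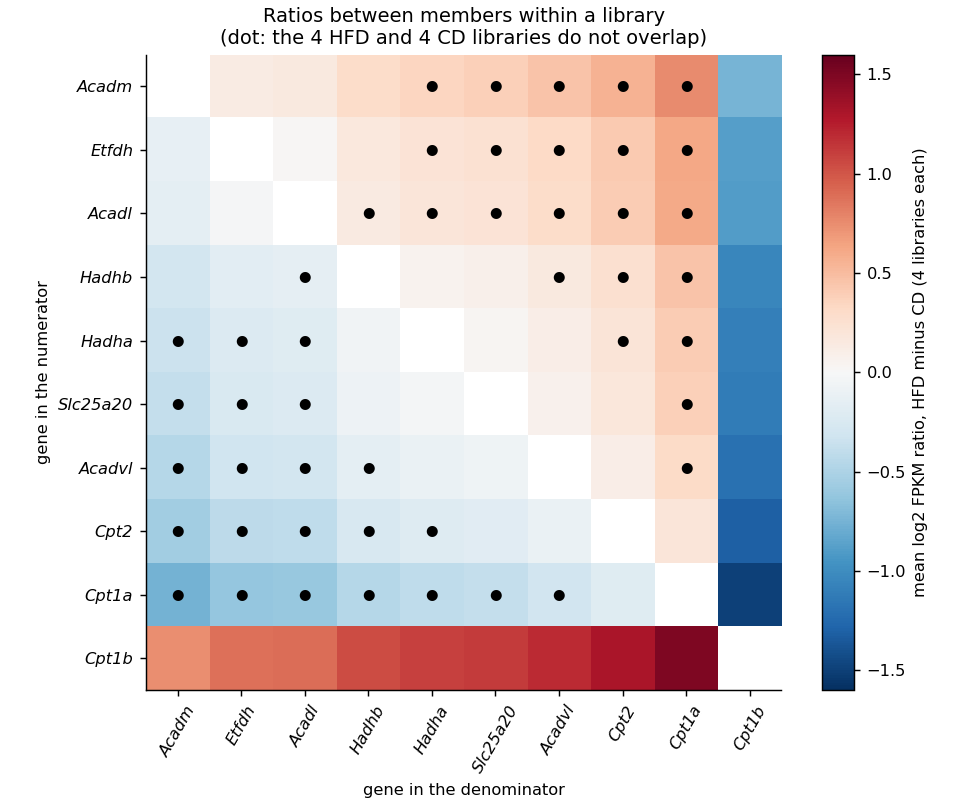
Mean log2 FPKM ratio of the row gene to the column gene, HFD minus CD (4 libraries each), with a dot where the HFD and CD libraries do not overlap (23 of 45 pairs). Acadm, Etfdh and Acadl gained on Cpt1a and Cpt2, and no pair with Cpt1b carries a dot, although within each label all 9 were separated by diet.

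Cpt1b and Cpt1a encode isoforms of the same entry step. The ratio of Cpt1a to Cpt1b was 142 and 276 in the f/f-labelled CD libraries, 115 and 71.6 in the LKO-labelled CD libraries, 84.0 and 73.0 in the f/f-labelled HFD libraries and 38.3 and 21.6 in the LKO-labelled HFD libraries. Cpt1a mRNA thus exceeded Cpt1b mRNA by at least 21.6-fold in every library. The 13 muscle markers summed to 1.10 to 1.99 FPKM in the LKO-labelled HFD libraries and to 1.65 to 1.86 FPKM in the f/f-labelled HFD libraries, where Cpt1b differed by 2.82-fold. In these sums Des was at 0.805 and 0.827 against 1.10 and 0.920 FPKM. Mylpf was at 0.961 and 0.277 against 0.551 and 0.369 FPKM. Des is also counted above among the stellate cell and endothelium markers. Whether muscle tissue contributed to Cpt1b was not tested. Chkb, a choline kinase gene upstream of Cpt1b on the same strand, is joined to it by an annotated read-through gene (Gm44502, not analysed here). Chkb was at 31.5 and 28.1 FPKM in the f/f-labelled HFD libraries and at 37.7 and 39.2 FPKM in the LKO-labelled ones (log2 difference 0.37 ± 0.102, unadjusted p = 0.009, adjusted p = 0.328). By diet, Chkb and Cpt1b had log2 differences of 0.01 (unadjusted p = 0.899) and 0.60 (unadjusted p = 0.0784) under the f/f label, and 0.33 (unadjusted p = 0.0154) and 1.08 (unadjusted p = 0.00783) under the LKO label. How far reads of one were counted for the other was not tested.

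Genes with profiles like that of Cpt1b were sought among 9839 candidates with an FPKM above 1 in all 8 libraries, a rule Cpt1b itself does not meet. Likeness was the root mean square difference of quantile-normalized log2(FPKM + 1) centred on each gene's mean. Nearest were Vnn1 (0.217), Cyp4a10 (0.285) and Gpc1 (0.288). The added 1 narrows the span of Cpt1b more than that of genes with higher FPKM. Cpt1b itself spread around its mean by 0.661 on this scale. Vnn1, a pantetheinase, was at 20.3 and 19.5 FPKM in RORα f/f CD, 28.9 and 38.9 in RORα LKO CD, 42.5 and 38.7 in RORα f/f HFD, and 69.2 and 92.9 in RORα LKO HFD. Cyp4a10, a fatty acid omega-hydroxylase, ran from 257 to 524 FPKM on CD, was at 453 and 521 in RORα f/f HFD and reached 843 and 1014 FPKM in RORα LKO HFD. The nearest to Cpt1a were Zup1 (0.0511), Sesn3 (0.0513) and Nptn (0.054), where Cpt1a itself spread by 0.133. Nptn ran from 35.0 to 46.6 FPKM on CD and from 31.8 to 36.0 FPKM on HFD.

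Genes around the members were read as 4 lists. The first held 23 tested genes for other steps of mitochondrial beta-oxidation and electron transfer. Of these, 5 rose on HFD over both labels at an adjusted p under 0.05 (5.04% of all genes) and 0 fell (4.86%). Among them, Acat1, which encodes the mitochondrial thiolase of acetoacetyl-CoA, ran from 112 to 129 FPKM on CD and from 169 to 208 FPKM on HFD (0.71 ± 0.0576, adjusted p = 0.00331). Hsd17b10, a short-chain hydroxyacyl-CoA dehydrogenase gene, rose by 0.65, Etfa, the electron acceptor subunit upstream of Etfdh, by 0.36, and Hadh, the medium- and short-chain hydroxyacyl-CoA dehydrogenase, by 0.33. On HFD, 5 of the 23 were higher under the LKO label at an unadjusted p under 0.05 (5.46% of all genes) and 0 lower (4.12%). None passed after adjustment (0.043% of all genes). Hadh was at 174 and 180 against 205 and 223 FPKM (0.31 ± 0.0679, unadjusted p = 0.00286, adjusted p = 0.246). The list's median was 0.05 for the genotype label on HFD and 0.17 for the diet. On CD, 2 of the 23 were higher under the LKO label at an unadjusted p under 0.05 (6.15% of all genes). These were Acads (0.30, unadjusted p = 0.00228, adjusted p = 0.196) and Acad10 (0.31, unadjusted p = 0.0412, adjusted p = 0.378).

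Among 16 tested genes of acyl-CoA and carnitine supply, 4 rose and 3 fell on HFD over both labels at an adjusted p under 0.05. Over all genes, 5.04% rose and 4.86% fell. Bbox1, the last enzyme of carnitine synthesis, rose by 0.36, and Acot13, an acyl-CoA thioesterase, by 0.31, while the long-chain acyl-CoA synthetase genes Acsl4 and Acsl3 fell by 0.85 and 0.62. Under the LKO label on HFD, 5 of the 16 were higher at an unadjusted p under 0.05 (5.46% of all genes) and 0 lower (4.12%). After adjustment 0 passed (0.043% of all genes). Crat, the carnitine acetyltransferase, was at 24.3 and 19.4 FPKM in the f/f-labelled and 40.8 and 39.6 FPKM in the LKO-labelled HFD libraries (0.88 ± 0.177, unadjusted p = 0.00177, adjusted p = 0.228). Crot, the peroxisomal carnitine octanoyltransferase, was at 188 and 173 against 246 and 267 FPKM (0.58 ± 0.0967, unadjusted p = 0.000611, adjusted p = 0.161). Acsl5 was at 50.4 and 52.0 FPKM against 77.6 and 71.5 FPKM (0.56 ± 0.0884, unadjusted p = 0.000452, adjusted p = 0.144). Slc27a1, a fatty acid transport protein gene, and Acot2, a mitochondrial thioesterase gene, had differences of 0.61 and 0.77. The list's median was 0.19 on HFD, near the 0.23 of the members. On CD, 1 of the 16 was higher under the LKO label at an unadjusted p under 0.05 (6.15% of all genes) and 1 lower (712 of all 11634 genes). Crat was higher there too, at 16.9 and 18.2 against 22.6 and 33.6 FPKM (0.64 ± 0.177, unadjusted p = 0.00888, adjusted p = 0.26). Acsl4 was lower (-0.36, unadjusted p = 0.0304, adjusted p = 0.349).

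Of 11 tested genes of malonyl-CoA control, 5 fell on HFD over both labels at an adjusted p under 0.05, 0 rose and 6 did not pass. Over all genes, 4.86% fell and 5.04% rose. The list's median was -0.09. Acacb, the acetyl-CoA carboxylase at the mitochondrial surface, ran from 7.27 to 11.5 FPKM on CD and from 2.48 to 4.87 FPKM on HFD (log2 difference -1.24 ± 0.197, adjusted p = 0.0153). Acaca, the cytosolic form, ran from 9.58 to 14.5 FPKM on CD and from 4.33 to 7.11 FPKM on HFD (-0.89 ± 0.14, adjusted p = 0.0142). Mid1ip1, an activator of acetyl-CoA carboxylase, fell by 0.63, and Mlycd, the decarboxylase that removes malonyl-CoA, by 0.24. For the genotype label on HFD, 2 were lower at an unadjusted p under 0.05 (4.12% of all genes) and 0 after adjustment. These were Thrsp, a lipogenic gene related to Mid1ip1, at 47.4 and 123 against 33.3 and 23.5 FPKM (unadjusted p = 0.0119, adjusted p = 0.345), and Mid1ip1, with a log2 difference of -0.39 (unadjusted p = 0.0238, adjusted p = 0.424). On CD, 2 of the 11 were higher under the LKO label at an unadjusted p under 0.05 (6.15% of all genes). There Mid1ip1 went the other way, at 12.9 and 10.4 against 17.6 and 14.1 FPKM (0.44, unadjusted p = 0.014, adjusted p = 0.288). The other was Mlycd (0.23, unadjusted p = 0.0271, adjusted p = 0.336).

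Of 24 tested transcription factor and coregulator genes, 6 rose and 0 fell on HFD over both labels at an adjusted p under 0.05. Over all genes, 5.04% rose and 4.86% fell. Nr1d1 (REV-ERBα), a repressor that shares binding sites with RORα, ran from 23.7 to 28.1 FPKM on CD and from 48.3 to 65.6 FPKM on HFD (1.20 ± 0.102, adjusted p = 0.00358). Esrrg, an estrogen-related receptor gene, ran from 0.838 to 1.72 FPKM on CD and from 2.35 to 3.603 FPKM on HFD (0.87 ± 0.146, adjusted p = 0.0182). For the genotype label on HFD, 1 of the 24 was higher and 2 were lower at an unadjusted p under 0.05, against the 5.46% and 4.12% of all genes given above. Nr1d2 (REV-ERBβ), a repressor related to Nr1d1, was at 28.6 and 27.5 against 20.5 and 22.4 FPKM (-0.36 ± 0.0694, unadjusted p = 0.00145, adjusted p = 0.228). Lpin1, which encodes lipin 1, a phosphatidate phosphatase and coactivator of PPARα, was the only gene of the 4 lists and the members with an adjusted p under 0.05. It was at 68.8 and 77.4 FPKM against 27.6 and 34.2 FPKM (-1.22 ± 0.117, adjusted p = 0.0457), and on CD at 68.5 and 77.3 against 17.5 and 18.8 FPKM (-1.91 ± 0.117, adjusted p = 0.00631). Pparg was at 4.22 and 4.46 FPKM against 5.86 and 6.38 FPKM on HFD (0.42 ± 0.0842, unadjusted p = 0.00179, adjusted p = 0.228). Ppara, at 44.5 and 35.7 against 41.9 and 46.2 FPKM, overlapped between the labels on HFD. On CD, 2 of the 24 were lower under the LKO label at an unadjusted p under 0.05 (712 of all 11634 genes). Besides Lpin1 this was Ppargc1a, at 3.09 and 3.91 against 1.96 and 2.17 FPKM (-0.55 ± 0.113, unadjusted p = 0.00196, adjusted p = 0.196). On HFD the difference of Ppargc1a was 0.04 (unadjusted p = 0.725).

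**Figure D4:**
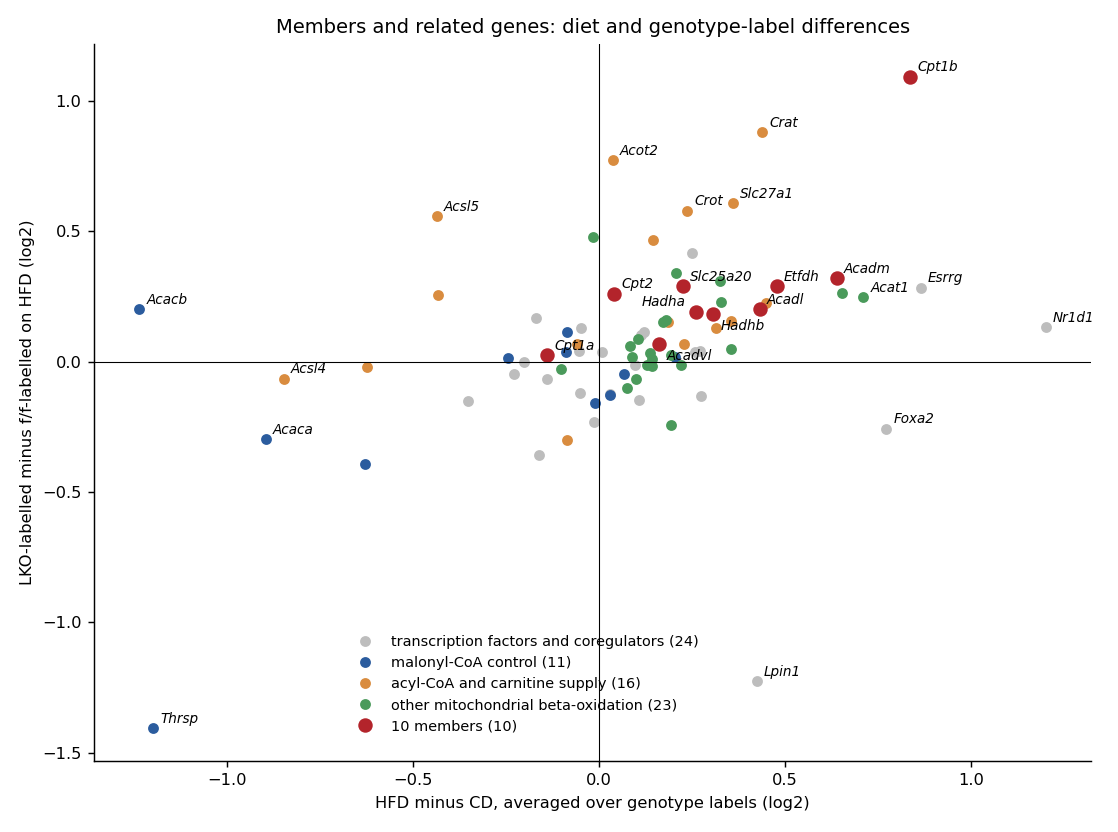
Log2 difference for the diet averaged over genotype labels (horizontal axis) against that for the LKO label minus the f/f label on HFD (vertical axis), 1 point per gene, coloured by list, with the number of genes tested in each. The axes share the HFD libraries. The members lie right of or near 0 and above 0, Acaca and Acacb lie far left, and Lpin1 and Thrsp lie lowest.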

How the data were processed

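RNA from pooled livers was sequenced on an Illumina HiSeq from poly(A) TruSeq libraries. Per the submitters' processing notes and the study's methods, the authors trimmed reads with cutadapt 1.0, aligned them to GRCm38 with TopHat2 2.0.7 and estimated expression with Cufflinks, whose version and annotation release are not given in the sources used here. The deposited values are FPKM (fragment numbers corrected for the length of the transcript and the number mapped per library) for 38283 genes, not on a log scale. The read depth behind each FPKM is not part of the table, so no counting interval is given. Identifiers were matched to symbols for 36341 genes.

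The 11634 genes that exceeded an FPKM of 1 somewhere were put on the log2(FPKM + 1) scale and quantile normalized. Fold changes on this scale understate those of low genes such as Cpt1b. limma 3.58.1 in R 4.3.3 was fitted once over the 4 group means with a mean-variance trend (4 residual and 2.8 prior degrees of freedom), and p-values were adjusted by Benjamini-Hochberg over all genes tested, separately for each of 7 comparisons. Error given with a log2 difference is its SE, and 95% intervals are limma's. Libraries are called separated where every normalized value of one group lies above every value of the other. Ratios between members used FPKM and exact permutation tests (SciPy 1.17.1). The pooled permutation procedure of the study's methods was not run. The limma step was tested on simulated data for the genotype label on HFD only, with spreads shuffled between genes. The rule for separated libraries and the permutation test were checked on small examples with known answers. Figures were drawn with matplotlib 3.10.9.

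The members, the 4 lists and the markers were chosen with earlier results of these data known. A further list, of later steps, is not reported here. Named were all members, Rora, Chkb and the 3 nearest profiles to Cpt1a and to Cpt1b. List genes were named for the averaged diet and for the genotype label on each diet. They were drawn from at most the 6 largest differences per list and comparison with an unadjusted p under 0.05 and separated libraries. Not every such gene was named, and none was named for the other comparisons. Ppara, Alb, Cyp2e1, Tat, Cps1, Adipoq, Lep, Cidea, Ucp1, Cfd, Fabp4, Adrb3, Cd68, Clec4f, Dcn, Des and Mylpf were named after their values were seen. So were overlapping genes. Alternatives were other normalizations, pseudocounts and filters, no trend, the replicate block, a fit of 4 libraries alone, and each library left out in turn. For the fit of 4 libraries alone, genes were still filtered and normalized over all 8 libraries.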

Additional observations from a re-analysis of the deposited data

How the results depend on the processing

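Of the recomputed differences of single members, 995 kept their direction and side of the threshold, 62 no longer passed, 4 passed anew and 22 reversed in sign. Counts that moved by over 1.5 times follow. Members with an adjusted p under 0.05 for the averaged diet difference numbered 3 in place of 6 without normalization, with FPKM above 0 in at least 1 library and without the trend, and 3 to 4 with 1 library left out. Under the LKO label they numbered 0 in place of 3 with 4 libraries alone and 0 to 1 with 1 library left out, and the members' median diet difference ran from 0.26 (without RORα LKO CD replicate 1) to 0.49 (without RORα LKO CD replicate 2). Under the f/f label they numbered 2 in place of 0 with FPKM above 1 in all 8 libraries. Members with an unadjusted p under 0.05 for the diet under the f/f label numbered 3 in place of 6 without normalization, with median centring and without the trend, and 3 to 6 with 1 library left out. For the genotype label they ran from 1 to 8 on HFD (6 with all libraries), from 0 to 2 on CD (0) and from 2 to 7 averaged over diets (6), and a pseudocount of 0.1 gave 1 on CD. For the interaction (1) they numbered 0 without normalization, with median centring and without the trend, 2 with FPKM above 1 in all 8 libraries or above 0 in at least 1, and 0 to 2 with 1 library left out. The cause was not tested.

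All genes with an adjusted p under 0.05 for the genotype label on HFD numbered 5, 24 with FPKM above 0 in at least 1 library and 4 to 24 with 1 library left out. On CD they numbered 2, 1 with a pseudocount of 0.1, 7 with FPKM above 1 in all 8 libraries, 10 with FPKM above 0 in at least 1, 4 without the trend, 0 with 4 libraries alone and 2 to 20 with 1 left out. For the interaction they numbered 4, then 2 (pseudocount 0.1), 0 (FPKM above 1 in all 8), 19 (FPKM above 0 in at least 1) and 11 to 21 (1 left out). Averaged over diets they numbered 12, then 7 (no normalization), 50 (FPKM above 1 in all 8), 28 (FPKM above 0 in at least 1) and 12 to 27 (1 left out). For the diet under the f/f label they numbered 155, then 323 (FPKM above 1 in all 8), 46 (FPKM above 0 in at least 1), 42 (no trend), 5 (4 libraries alone) and 12 to 34 (1 left out). Under the LKO label they numbered 351, then 570, 135, 229, 0 and 19 to 80 in the same order. For the averaged diet they numbered 1151, 704 with FPKM above 0 in at least 1 library and 340 to 731 with 1 left out. Averaged over diets the genotype calls were 5 higher and 7 lower, 1 and 6 without normalization and 2 and 6 with median centring. Without normalization the diet calls under the f/f label were 56 higher and 109 lower (73 and 82 with it), and under the LKO label 136 and 239 (183 and 168).

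Same-numbered libraries of different groups come from different mice, and Pearson's r between their deviations from the group means ran from -0.00371 to 0.149 over all genes tested, so the numbers were not taken to pair libraries. Under a replicate block, genes called numbered 34 for the diet under the f/f label and 223 under the LKO label, and members with an unadjusted p under 0.05 for the interaction numbered 0. The members called for the averaged diet were 4 in place of 6 under the block.

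Reversals fell on differences of at most 0.15 in size that had not passed the test. Without normalization Cpt1a had -0.0058 for the genotype label on HFD and Cpt2 -0.022 for the averaged diet. With 1 library left out, Cpt1a ran from -0.023 to 0.074 (genotype label on HFD), -0.12 to 0.22 (on CD), -0.046 to 0.12 (averaged), -0.19 to 0.14 (interaction), -0.26 to 0.0065 (diet, f/f label) and -0.32 to 0.018 (diet, LKO label). On CD the genotype difference ran from -0.11 to 0.089 for Slc25a20, -0.054 to 0.10 for Etfdh and -0.092 to 0.18 for Hadhb, the interaction of Acadvl from -0.064 to 0.030, and the diet difference of Cpt2 under the f/f label from -0.12 to 0.037. Cpt1b was not tested with FPKM above 1 in all 8 libraries, since 1 library had 0.637.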

Other observations

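The summed FPKM of the 10 members ran from 1081 to 1201 in the 4 CD libraries, was 1248 and 1186 in the f/f-labelled HFD libraries and 1318 and 1433 in the LKO-labelled HFD libraries. As a share of all FPKM this was 0.111% to 0.151% on CD and 0.157% to 0.191% on HFD, but the denominator includes Alb, which was listed at 0 in 4 libraries.

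Within groups, replicate 2 was above replicate 1 in FPKM for 10 of 10 members in RORα LKO CD and 8 of 10 in RORα LKO HFD, and for 4 of 10 in RORα f/f CD and 3 of 10 in RORα f/f HFD. Over all genes the share above was 49.7%, 56.2%, 49.1% and 45.8%. The difference between groups in this count was not tested.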
